A study of Mus musculus with 8 samples.

Results

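The genes described here are 9 markers of LAMP5 neurons, the class of cortical inhibitory neurons that includes the neurogliaform cells: Lamp5, Ndnf, Reln, Id2, Kit, Sv2c, Egln3, Pax6 and Cplx3. They were taken by symbol from tables of 55450 genes, and all 9 were found and passed the filter on low counts. Per the labels, each library holds nuclear RNA from the cortex of a single juvenile mouse, taken from nuclei that a sorter picked by their fluorescence. In all of these mice Cre recombination in GABAergic neurons switched on a nuclear fluorescent reporter. Control mice were Thra+/+. Mutant mice were Thra+/AMI, in which the same Cre also switched on 1 mutant allele of Thra, encoding a thyroid hormone receptor with dominant-negative action. The labels name neither the Cre driver nor an age in days. The receptor was thus altered in every class of GABAergic neuron the driver reaches, and LAMP5 nuclei are one unmeasured fraction of each library. The title of the series concerns parvalbumin neurons and the timing of their maturation by thyroid hormone, and the comparison of mutants with controls was read here for the LAMP5 class.

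LAMP5 neurons arise mainly from the caudal ganglionic eminence, are common in the outermost layer of the cortex, and release GABA diffusely as well as at synapses. Neurogliaform cells, the main type among them, act on neighbouring neurons through slow GABA-A and GABA-B responses. None of the 9 markers is fully private to the class. Reln is also made by somatostatin neurons and Cajal-Retzius cells, Cplx3 by layer 6b neurons, and Id2 and Egln3 by other neurons of caudal origin.

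The series has 8 samples, of which 4 are labelled mutant. The tables of mutants 7 and 10 held the same count in each of 55220 comparable genes. These tables thus repeat the same values and stand as 1 sample here. All values below therefore come from 4 controls and 3 mutants, with total counts from 10747169 to 13804734 per library. Thra itself was at 114 ± 9.35 CPM (reads per 1000000 counted, scaled by TMM factors; ± is the SD throughout, over 4 controls or 3 mutants) in controls and 87.5 ± 9.39 CPM in mutants (edgeR, adjusted p = 0.0543). The counts add up both alleles and cannot check the genotype. As a check of the sort, Gad1, an enzyme of GABA synthesis, ran from 520.1 to 664 CPM, and Slc17a7, the vesicular glutamate transporter of cortical excitatory neurons, from 46.9 to 94.5 CPM. Slc32a1, the vesicular GABA transporter, ran from 17.8 to 31.6 CPM and was below Slc17a7 in every library. Control 1 and control 4 stood apart from each other by gene length. The log2 ratio of control 1 to control 4 had a median of 0.47 over tested genes under 10 kb and of -0.73 over genes over 100 kb. Control 4 and mutant 8 had 4 and 3 reads of Y-linked genes, against 5094 to 6644 in the other libraries.

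Of the 9 markers, 2 differed between the genotypes. Cplx3 fell and Sv2c rose in mutants (edgeR's quasi-likelihood test, Benjamini-Hochberg adjusted p under 0.05 over 16448 tested genes). The same test called 9.42% of all tested genes, 4.78% lower and 4.63% higher. Among 9 genes, 1 call in each direction is too small a count to compare with those shares. The median log2 fold change of the 9 markers was 0.09, against -0.01 over all tested genes, with 4 markers lower and 5 higher. An unadjusted p under 0.05 was found for 6 markers, against 22.5% of tested genes. The groups did not overlap in 4 markers, Reln, Kit, Sv2c and Cplx3, where 22.0% of tested genes had no overlap. A change of RNA per nucleus and a change in the number of LAMP5 nuclei cannot be told apart in these libraries. Leaving out 1 library moved the number of called markers: it was 0 without mutant 8, 5 without control 4, and 1 without control 2, control 3, mutant 6 or mutant 7. The share of all tested genes called moved as well. It was 4.86% without mutant 8 and 14.5% without control 4. Without control 2, control 3, mutant 6 or mutant 7 it was 6.44%, 6.25%, 4.55% and 4.35%.

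**Figure D1:**
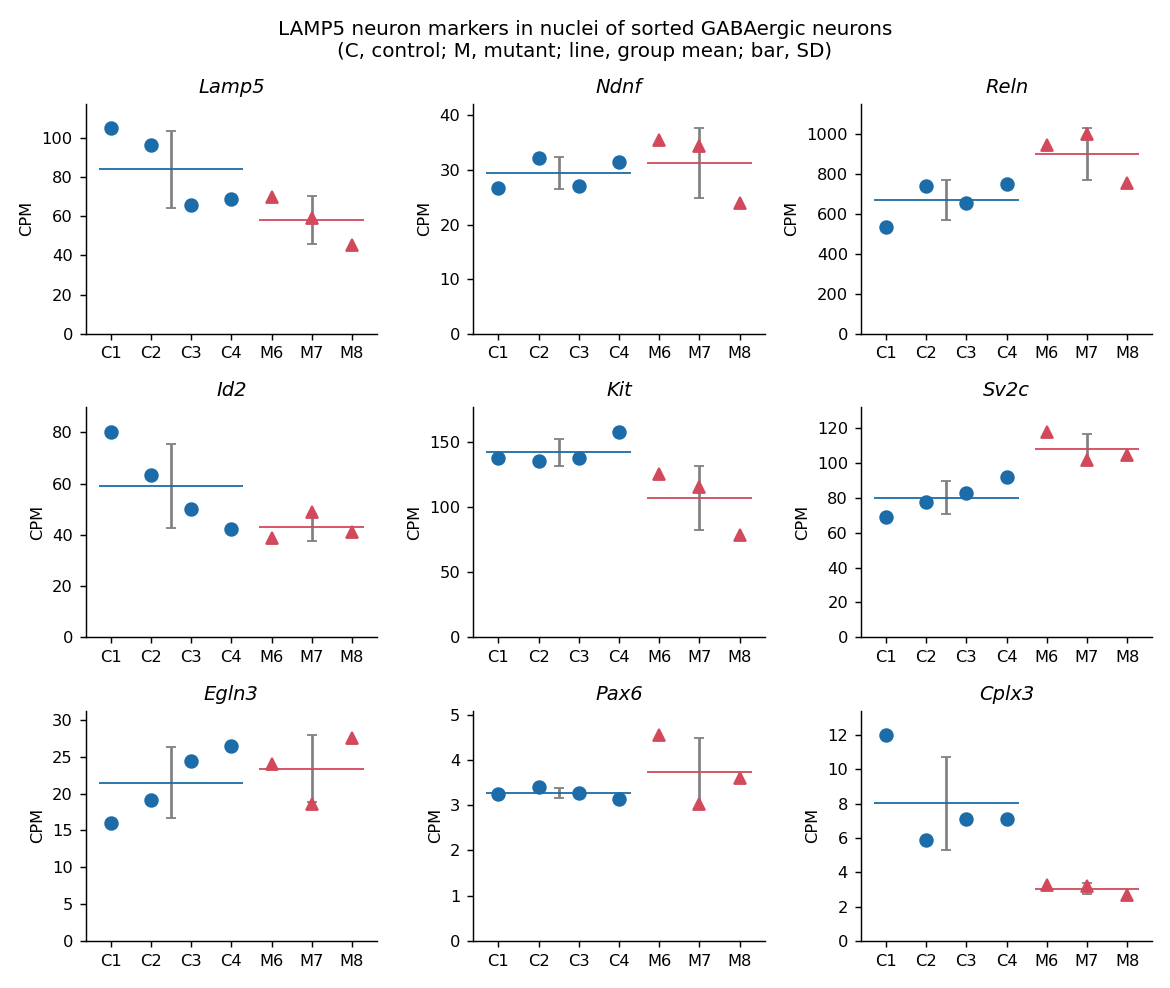
Level of each of the 9 markers in CPM (vertical axes, starting at 0) in the 4 controls (C, circles) and 3 mutants (M, triangles), with the group mean as a line and the SD as a bar. Every mutant lies below every control for Cplx3 and above every control for Sv2c, whereas Ndnf, Egln3 and Pax6 overlap between the groups.

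Cplx3 encodes complexin 3, a small protein that binds the SNARE complex and controls the fusion of synaptic vesicles. The gene lies on chromosome 9 of GRCm38, 57599992 to 57606281, on the minus strand, and shares no span with another gene. It was at 11.98, 5.89, 7.08 and 7.10 CPM in controls 1 to 4 and at 3.29, 3.21 and 2.66 CPM in mutants 6, 7 and 8. Every mutant was below every control, and control 1 was the highest library. These levels rest on few reads, 78 to 151 per control and 34 to 42 per mutant. Cplx3 fell from 8.01 ± 2.70 CPM (SD, n = 4) to 3.05 ± 0.343 CPM (SD, n = 3). It was 2.62-fold lower, with a log2 fold change of -1.39 and an SE of 0.28 (edgeR, adjusted p = 0.00817). The call was lost without mutant 8 (log2 fold change -1.29, adjusted p = 0.0548), and without control 1 the change was -1.13 (adjusted p = 0.00599).

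Because Cplx3 is also known from layer 6b excitatory neurons, markers of those cells were read beside it. None of the 3 tested genes of a list of 5 layer 6b markers was called (edgeR, DESeq2 and limma-voom; 1 had an unadjusted p under 0.05). All 5 summed to 52.0 to 67.8 CPM per control and 59.4 to 77.8 CPM per mutant. Most of that sum was 1 gene, Moxd1, at 48.6 ± 5.72 CPM in controls and 51.8 ± 8.96 CPM in mutants, so the sum says little about the other listed genes. Nxph4, a secreted neurexophilin on that list, was at 0.08 to 0.24 CPM in controls and 0.46 to 0.78 CPM in mutants, on 1 to 10 reads. The summed level of 9 glutamatergic markers was 93.3 to 191.2 CPM in controls and 98.3 to 156.9 CPM in mutants, and 0 of them were called (edgeR, DESeq2 and limma-voom; 0 had an unadjusted p under 0.05). With the mean of the glutamatergic list as a covariate, a list without the layer 6b genes, the log2 fold change of Cplx3 was -1.34 (edgeR, adjusted p = 0.0143). No layer 6b covariate was run, and the part of layer 6b cells in the level of Cplx3 was not tested.

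The promoters of the pair of called markers are shown since the mutated protein is a DNA-binding receptor, which recognises the motif AGGTCA. The windows hold 250 bases before and 50 after the RefSeq start on GRCm38.p6, on the strand of the gene, chr9:57606232-57606531 for Cplx3 and chr13:96132528-96132827 for Sv2c. Capitals mark AGGTCA or its reverse complement.
Cplx3: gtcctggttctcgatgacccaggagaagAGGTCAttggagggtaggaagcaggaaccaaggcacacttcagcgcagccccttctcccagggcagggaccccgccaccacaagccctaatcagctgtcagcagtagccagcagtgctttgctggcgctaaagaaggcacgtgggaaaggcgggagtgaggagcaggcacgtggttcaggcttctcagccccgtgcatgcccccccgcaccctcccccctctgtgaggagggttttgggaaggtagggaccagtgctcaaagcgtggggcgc
Sv2c: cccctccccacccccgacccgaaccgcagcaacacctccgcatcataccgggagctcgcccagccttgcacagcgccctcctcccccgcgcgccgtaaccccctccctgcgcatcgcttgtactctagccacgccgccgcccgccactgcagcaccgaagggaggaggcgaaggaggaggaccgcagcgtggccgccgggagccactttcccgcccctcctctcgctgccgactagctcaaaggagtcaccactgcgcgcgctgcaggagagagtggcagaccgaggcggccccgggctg
The Cplx3 window held 1 match, starting 222 bases before the start, and the Sv2c window held 0. RefSeq windows were found for 8 of the 9 markers, 11 windows in all, and the Cplx3 window was the only 1 of them with AGGTCA on either strand. The motif was present in 16.3% of all 32851 promoter windows of this length. The direct repeat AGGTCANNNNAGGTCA, which contains the shorter motif, was present in 0 of the 11 windows and in 0.0152% of all windows. A match describes letters in these windows and not binding.

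Sv2c encodes a synaptic vesicle glycoprotein, 1 of the SV2 family of vesicle membrane proteins. The gene lies on chromosome 13, 95954594 to 96132577, on the minus strand. Its level was 68.7, 77.3, 82.6 and 91.7 CPM in controls 1 to 4 and 117.7, 101.8 and 104.7 CPM in mutants 6, 7 and 8. Every mutant was above every control. Sv2c rose from 80.1 ± 9.64 CPM (SD, n = 4) to 108 ± 8.49 CPM (SD, n = 3). This was 1.35-fold, with a log2 fold change of 0.43 and an SE of 0.12 (edgeR, adjusted p = 0.0381). Over 17 alternatives the log2 fold change ran from 0.37 to 0.53. The call was lost with the glutamatergic covariate (adjusted p = 0.0682) and without control 2 (0.112), control 3 (0.0850), mutant 6 (0.181), mutant 7 (0.0903) or mutant 8 (0.107).

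The paralogs of these vesicle genes were read in the same fit. Of the complexins, Cplx1, a complexin of many inhibitory terminals, fell from 398 ± 66.6 to 227 ± 19.7 CPM (log2 fold change -0.81, SE 0.15, edgeR adjusted p = 0.00534) and was called in each of the 17 alternatives. Cplx2 was at 62.1 ± 3.697 and 68.5 ± 14.5 CPM (0.14, adjusted p = 0.627), and Cplx4 did not pass the filter. Per kb of exon Cplx3 was the lowest of the 3 tested complexins in every library, at 2.00 to 4.06 CPM per kb in controls and 0.90 to 1.11 in mutants. The ratio of Cplx3 to Cplx2 per kb was 0.161 to 0.327 in controls and 0.0599 to 0.106 in mutants. In the SV2 family Sv2a, the member found in most synapses, was at 312 ± 45.7 CPM in controls and 227 ± 8.87 CPM in mutants, without overlap (-0.46, SE 0.14, adjusted p = 0.0577). It passed the threshold in 8 of 17 alternatives. The ratio of Sv2c to Sv2a per kb was 0.0878 to 0.164 in controls and 0.206 to 0.258 in mutants. Sv2b was at 31.5 ± 13.4 and 25.2 ± 7.69 CPM (-0.31, adjusted p = 0.602).

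**Figure D2:**
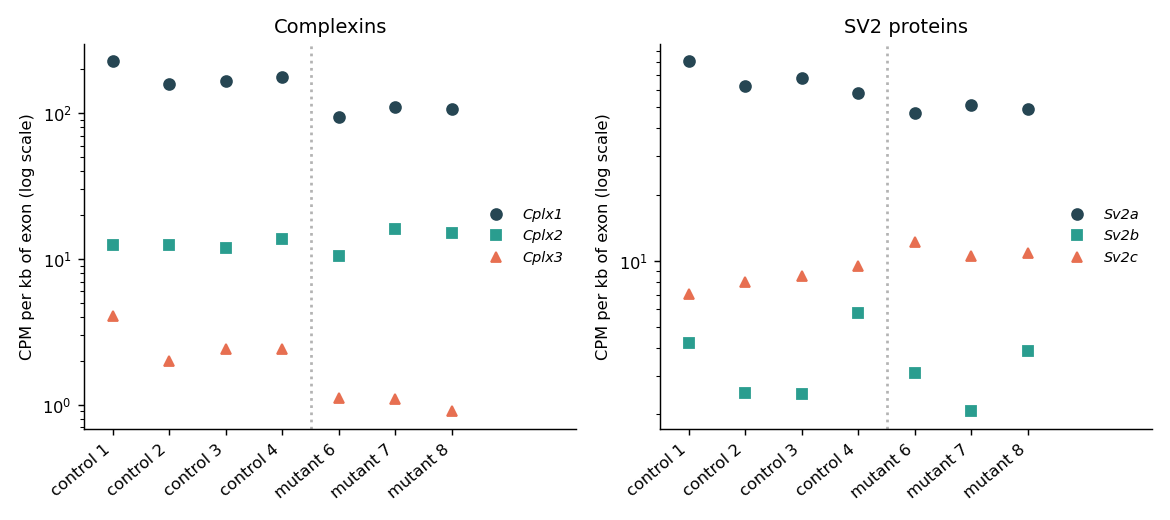
Complexins (left) and SV2 proteins (right) in CPM per kb of exon on a log axis, 1 point per library, with controls left and mutants right of the dotted line. Cplx3 and Cplx1 are lower in the mutants than in every control while Cplx2 overlaps, and Sv2c is higher in the mutants than in every control.

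The SNARE proteins that complexins bind were measured as partners. Stx1a, a syntaxin of the presynaptic membrane, rose from 122 ± 17.5 to 174 ± 4.63 CPM (0.51, SE 0.12, edgeR adjusted p = 0.0220), and leaving out control 2, control 3 or each of the mutants in turn ended this call, with adjusted p up to 0.0968. Snap25, Vamp2 and Syt1 were not called, at log2 fold changes from -0.18 to 0.07. In the whole list of 17 partners, chosen for SNARE binding, reelin reception, Kit ligand, oxygen sensing and E proteins, 16 were tested, 1 was called higher and 0 lower, beside 4.63% and 4.78% of all tested genes, with a median log2 fold change of 0.03.

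Lamp5, the gene that names the class, encodes a brain-restricted member of the lysosome-associated membrane protein family found in inhibitory terminals. It lies on chromosome 2, 136052239 to 136069917, on the plus strand. The levels were 104.9, 96.3, 65.8 and 68.6 CPM in controls 1 to 4 and 69.6, 59.2 and 45.1 CPM in mutants 6, 7 and 8. Mutant 6 lay above controls 3 and 4, so the groups overlapped, and the controls themselves fell into a higher and a lower pair. The means were 83.9 ± 19.6 CPM (SD, n = 4) and 58.0 ± 12.3 CPM (SD, n = 3). The log2 fold change was -0.53, with an SE of 0.19, and did not pass the threshold (edgeR, adjusted p = 0.107). It passed without control 4 (-0.62, adjusted p = 0.0203) and under limma-voom with sample quality weights (-0.50, adjusted p = 0.0451). The paralogs Lamp1 and Lamp2, general lysosomal membrane proteins, were at 54.2 ± 3.03 and 43.7 ± 4.88 CPM in controls and at 47.8 ± 2.57 and 40.5 ± 5.96 CPM in mutants (adjusted p = 0.352 and 0.713).

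Reln encodes reelin, a large secreted glycoprotein that binds the receptors Vldlr and Lrp8 and signals through Dab1. The gene spans chromosome 5 from 21884454 to 22344702 on the minus strand, and 10.4% of that span is shared with other genes. It was the most abundant marker per library, at 534, 739, 656 and 752 CPM in controls 1 to 4 and 944, 1003 and 756 CPM in mutants 6, 7 and 8. The groups did not overlap, but mutant 8 lay only just above control 4. The means were 670.3 ± 99.9 CPM (SD, n = 4) and 901 ± 129 CPM (SD, n = 3), with a log2 fold change of 0.43 and an SE of 0.17 (edgeR, adjusted p = 0.162). Reln passed in 5 of 17 alternatives, at log2 fold changes from 0.37 to 0.49, among them an offset for gene length (0.38, adjusted p = 0.0409). Markers of Cajal-Retzius cells, excitatory neurons that make reelin and that the sort for GABAergic nuclei should leave out, were near absent: none of 5 was tested, and their summed level was 0.16 to 0.61 CPM in controls and 0 to 1.01 CPM in mutants. Sst, the peptide of somatostatin neurons, which also make reelin, was 1.79-fold higher in mutants (edgeR adjusted p = 0.00682), and its part in the level of Reln was not tested. Both reelin receptors were higher in every mutant than in every control, as were 11.2% of all tested genes. Neither passed the threshold with edgeR on all 7 libraries, and each passed in 5 of 17 alternatives. Vldlr was at 75.3 ± 8.77 and 95.5 ± 4.29 CPM (edgeR, adjusted p = 0.0845) and Lrp8 at 290.3 ± 16.8 and 370.1 ± 19.9 CPM (adjusted p = 0.0946). The adaptor Dab1 was at 757 ± 347 and 742 ± 122 CPM (adjusted p = 0.973).

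Kit encodes the receptor tyrosine kinase for stem cell factor. It lies on chromosome 5, 75574916 to 75656722, on the plus strand. Its levels were 137.5, 135.3, 137.9 and 157.6 CPM in controls 1 to 4 and 125.5, 115.5 and 78.7 CPM in mutants 6, 7 and 8. All mutants lay below all controls, and mutant 8 was well below the other mutants. The means were 142 ± 10.4 CPM (SD, n = 4) and 107 ± 24.6 CPM (SD, n = 3), with a log2 fold change of -0.42 and an SE of 0.15 (edgeR, adjusted p = 0.114). Without mutant 8 the log2 fold change was -0.23 (adjusted p = 0.415). The ligand Kitl was at 20.2 ± 4.34 CPM in controls and 18.4 ± 0.876 CPM in mutants (adjusted p = 0.735).

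Ndnf encodes a secreted neurotrophic factor that marks neurogliaform cells of layer 1. It lies on chromosome 6, 65671590 to 65712326, on the plus strand. Its levels were 26.7, 32.3, 27.1 and 31.5 CPM in controls 1 to 4 and 35.4, 34.4 and 23.9 CPM in mutants 6, 7 and 8. Mutants 6 and 7 were the highest libraries and mutant 8 the lowest, so the mutants spanned the controls. The log2 fold change was 0.09 (SE 0.16, edgeR adjusted p = 0.811), between means of 29.4 ± 2.90 CPM (SD, n = 4) and 31.3 ± 6.37 CPM (SD, n = 3).

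Id2 and Pax6 are the regulators of transcription among the markers. Id2, on chromosome 12, 25093799 to 25097140, minus strand, encodes a helix-loop-helix protein without a DNA-binding region that holds E proteins off DNA. It was at 80.2, 63.5, 50.1 and 42.4 CPM in controls 1 to 4 and at 38.7, 48.7 and 41.1 CPM in mutants 6, 7 and 8. The mutants lay at the lower end of a wide control range. The log2 fold change was -0.46 (SE 0.19, edgeR adjusted p = 0.171), from 59.0 ± 16.6 CPM (SD, n = 4) to 42.9 ± 5.23 CPM (SD, n = 3). Id2 passed in 4 of 17 alternatives, at -0.59 (adjusted p = 0.0141) without control 4 and at -0.39 (adjusted p = 0.0491) with the offset for gene length. Of its paralogs, Id4 was at 17.1 ± 5.12 and 27.2 ± 7.46 CPM (adjusted p = 0.105), Id3 at 12.8 ± 3.37 and 9.55 ± 0.559 CPM (adjusted p = 0.266) and Id1 at 6.18 ± 1.52 and 5.49 ± 1.73 CPM (adjusted p = 0.787). Id4, higher in mutants, passed the threshold in 5 of 17 alternatives. The E proteins Tcf3, Tcf4 and Tcf12, partners of Id2, were not called, at log2 fold changes from 0.06 to 0.19.

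Pax6, a paired-box and homeodomain transcription factor found in a subset of LAMP5 neurons, lies on chromosome 2, 105668900 to 105697364, plus strand, with 5.03% of its span shared with an antisense gene. It had the fewest reads of the 9 markers over all libraries together, 33 to 58 per library. In mutants, however, its mean of 3.72 CPM was above the 3.05 CPM of Cplx3. Its levels were 3.25, 3.40, 3.27 and 3.15 CPM in controls 1 to 4 and 4.54, 3.03 and 3.60 CPM in mutants 6, 7 and 8. The controls lay close together, and the mutants reached above and below them (log2 fold change 0.19, SE 0.24, edgeR adjusted p = 0.715).

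Egln3 encodes a prolyl hydroxylase that marks hypoxia-inducible factors for breakdown when oxygen is present. It lies on chromosome 12, 54178981 to 54203860, on the minus strand. Its levels were 15.9, 19.2, 24.4 and 26.5 CPM in controls 1 to 4 and 24.0, 18.5 and 27.5 CPM in mutants 6, 7 and 8, and the groups overlapped. The log2 fold change was 0.12 (SE 0.19, edgeR adjusted p = 0.784). Its paralogs Egln1 and Egln2 were at 64.2 ± 10.997 and 39.9 ± 6.07 CPM in controls and at 56.9 ± 2.72 and 30.6 ± 0.529 CPM in mutants (adjusted p = 0.516 and 0.106). Egln2, lower in mutants, passed the threshold in 4 of 17 alternatives. Hif1a was listed at 0 in every library. It is 1 of 6 genes on the lists used here that were listed at 0 throughout, and 5 of these share their whole span with other genes. Among the markers the shared span was at most 10.4%.

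Per kb of exon, the markers formed 4 tiers in controls. Lamp5 (28.6 ± 6.69 CPM per kb, SD, n = 4), Reln (28.2 ± 4.21), Id2 (24.2 ± 6.79) and Kit (15.9 ± 1.17) came first, and each neighbouring pair in this order overlapped over the control libraries. Sv2c (8.25 ± 0.994) and Egln3 (8.08 ± 1.81) followed and overlapped each other. Ndnf (2.91 ± 0.287) and Cplx3 (2.71 ± 0.915) overlapped as well, and Pax6 was the lowest, apart from all others, at 0.279 ± 0.00895. In mutants Reln (38.0 ± 5.44, SD, n = 3) came before Lamp5 (19.8 ± 4.19), and the order of the other markers was as in controls. These levels use exon length, and whether intron reads were counted is not given in the sources used here. If they were, genes with long introns, such as Reln of 460.2 kb and Sv2c of 178 kb, would stand too high beside short genes. The tiers and the ratios between genes are thus not a sure order of RNA level.

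The markers did not move as one block across libraries. Mutant 8 was the lowest of the 7 libraries for 4 markers, Lamp5, Ndnf, Kit and Cplx3, and the highest for Egln3. Control 1 was the highest for Lamp5, Id2 and Cplx3 and the lowest for Reln, Sv2c and Egln3. The log2 ratio of control 1 to control 4 was 0.92 for Id2, a gene of 3.34 kb, and 0.75 for Cplx3, of 6.29 kb, but -0.49 for Reln, of 460.2 kb, and -0.42 for Sv2c, of 178 kb. The sign in these 4 genes was that of the trend over all tested genes, but the ratio did not follow length among the 9 markers: Egln3, of 24.9 kb, had the lowest, at -0.73, and Kit, of 81.8 kb, was at -0.20. With an offset for gene length 5 of the 9 markers were called, Cplx3, Id2 and Kit lower and Reln and Sv2c higher, where the same fit called 16.7% of all tested genes.

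**Figure D3:**
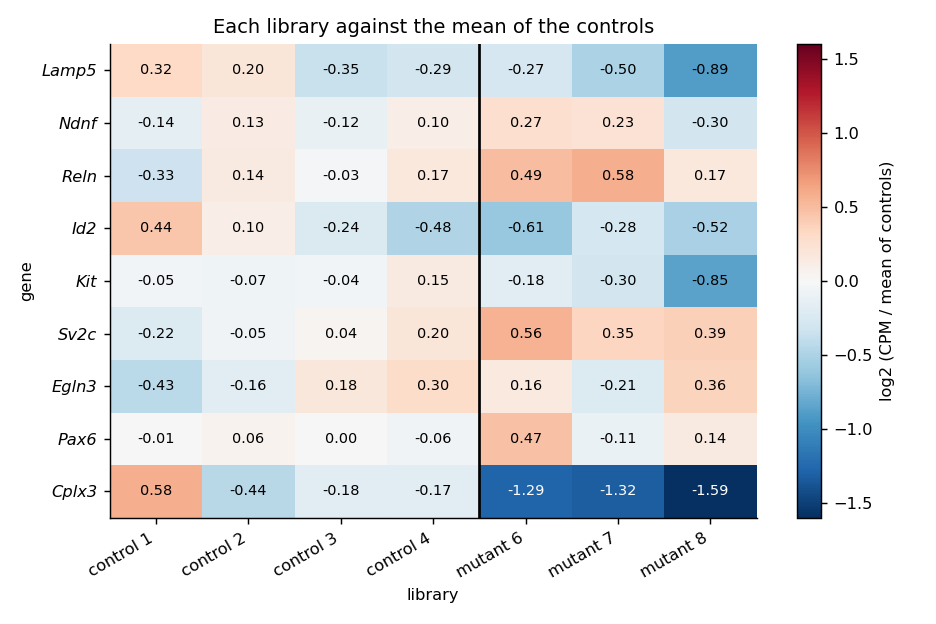
Log2 of the CPM of each marker (rows) in each library (columns) over the mean CPM of the controls, with controls left of the line. The Cplx3 row is negative in every mutant (-1.29 to -1.59), and the Sv2c row is positive in every mutant (0.35 to 0.56). Controls 1 and 4 have opposite signs in every row except that of Pax6.

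A further list of 13 genes of LAMP5 neurons was read beside the 9 markers, from the names of LAMP5 types in cortical catalogues and from known neurogliaform genes. It held Krt73, Fam19a1, Tmem182, Ntn1, Npy2r, Plch2, Dock5, Lsp1, Lhx6, Npy, Gabrd, Cxcl14 and Nos1, several of which other GABAergic classes also express. Of the 12 tested, 5 fell and 1 rose, beside 4.78% and 4.63% of all tested genes, with a median log2 fold change of -0.53. The list was chosen with earlier results of these data known, so this count describes the list and does not test it against genes in general. Pvalb, the marker of parvalbumin neurons, another class in the sort, fell from 41.0 ± 5.91 to 1.81 ± 0.682 CPM (-4.48, edgeR adjusted p = 7.63e-07), and the part of that class in the levels of this list was not tested. The list summed to 1127 to 1267 CPM per control and 725 to 790.5 CPM per mutant. Tmem182 did not pass the filter. Cxcl14, a chemokine of caudal interneurons, fell from 52.2 ± 17.1 to 14.2 ± 2.13 CPM (log2 fold change -1.88, SE 0.23, edgeR adjusted p = 0.000322). Gabrd, the δ subunit of extrasynaptic GABA-A receptors, fell from 261 ± 33.2 to 74.8 ± 6.82 CPM (-1.80, SE 0.14, adjusted p = 1.05e-05). Its levels were 302.3, 264.3, 254.5 and 221.8 CPM in controls 1 to 4 and 80.7, 67.3 and 76.3 CPM in mutants 6, 7 and 8, so the groups were far apart.

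Dock5, a guanine nucleotide exchange factor, fell from 11.6 ± 2.15 to 4.28 ± 1.05 CPM (-1.43, SE 0.23, edgeR adjusted p = 0.00227). Plch2, a phospholipase C, fell from 265 ± 19.0 to 151 ± 20.6 CPM (-0.81, SE 0.13, adjusted p = 0.00195). Npy, the peptide of neurogliaform and many somatostatin neurons, fell from 265 ± 35.3 to 169.6 ± 12.8 CPM (-0.64, SE 0.13, adjusted p = 0.00932). Its call was lost without mutant 6 (adjusted p = 0.0688) or mutant 8 (adjusted p = 0.0637). Npy2r, a receptor for neuropeptide Y that names 1 LAMP5 type, rose from 12.2 ± 2.43 to 24.5 ± 4.10 CPM (1.00, SE 0.18, adjusted p = 0.00468). Cxcl14, Gabrd, Dock5, Plch2 and Npy2r were called in each of the 17 alternatives. Lsp1 (-0.84, adjusted p = 0.0971), Ntn1, Krt73, Fam19a1, Nos1 and Lhx6 were not called.

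**Figure D4:**
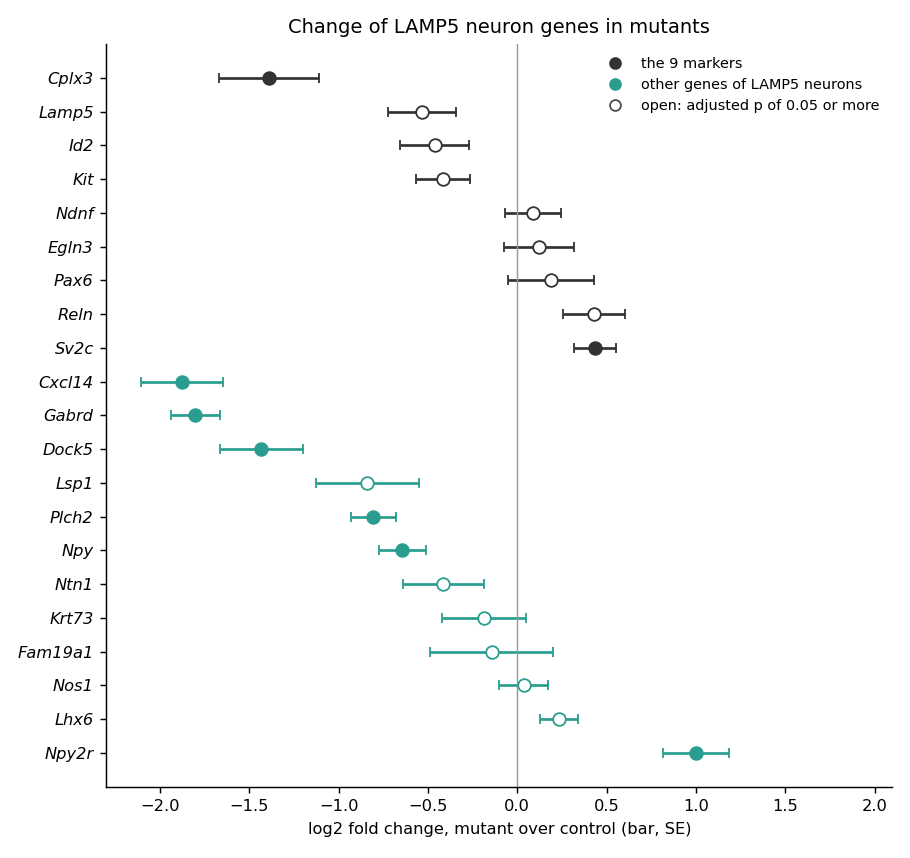
Log2 fold change of mutant over control with its SE for the 9 markers (dark, top) and the 12 tested further genes of LAMP5 neurons (green, bottom), filled where the adjusted p was under 0.05. Cplx3 (-1.39) and Sv2c (0.43) are filled among the markers, and Cxcl14, Gabrd, Dock5, Plch2, Npy and Npy2r among the further genes.

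Lists of other cells in the sort were read for the same libraries. Among 7 general GABAergic genes, 0 of 5 tested were called (edgeR, DESeq2 and limma-voom; 0 had an unadjusted p under 0.05), with Gad1 at 569 ± 63.2 and 637 ± 43.9 CPM, Gad2 at 403 ± 15.1 and 435 ± 65.4 CPM and Slc32a1 at 24.7 ± 2.61 and 24.3 ± 6.90 CPM in controls and mutants. Of 5 tested astrocyte, 4 microglial and 5 endothelial markers, 0 were called (edgeR; 1, the microglial Csf1r, had an unadjusted p under 0.05 and was the only 1 of these called by DESeq2 or limma-voom). Of 6 oligodendrocyte markers, Mog rose (0.93, adjusted p = 0.00545), while the summed level of that list was 151 to 195 CPM in controls and 166.5 to 200.05 CPM in mutants.

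The genes most like Lamp5, Sv2c and Cplx3 in their values over the 7 libraries were looked up among 11797 genes that were tested and averaged 5 CPM or more, by the root mean square difference of centred log2 CPM. For Cplx3 they were Relt (0.17), 1190002N15Rik (0.19) and Car4 (0.19), and the mean levels of Car4, a carbonic anhydrase, were 71.5 CPM in controls and 29.1 CPM in mutants. For Sv2c they were Slc35d1 (0.05), Elmsan1 (0.05) and Fam129b (0.06). For Lamp5 they were Gm6227 (0.15), Mpdz (0.16) and Gm4928 (0.16). The nearest genes of Lamp5 thus lay farther from it than those of Sv2c did.

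**Figure D5:**
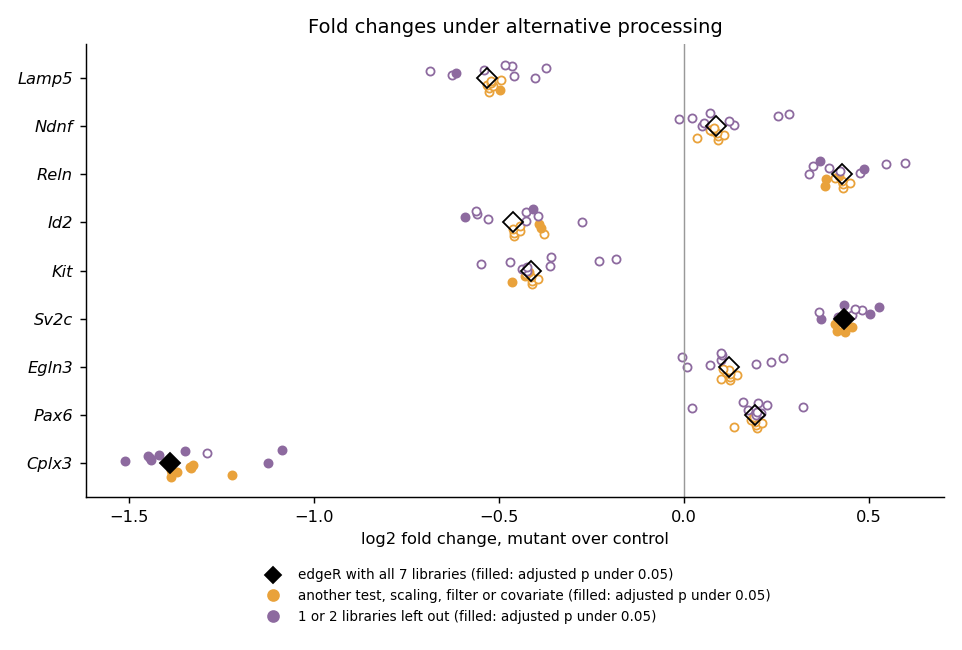
Log2 fold change of each marker with all 7 libraries (diamonds), under other tests, scalings, filters or covariates (orange) and with 1 or 2 libraries left out (purple), filled where the adjusted p was under 0.05. Cplx3 stays between -1.51 and -1.09 and Sv2c between 0.37 and 0.53, whereas Ndnf and Egln3 cross 0.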

How the data were processed

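The authors deposited 1 table of raw counts per library (mutant 10, left out as a repeat, by symbol; the others by Ensembl gene). Bowtie2 2.5.3 and the builds mm10 and GRCm38 are listed in the submitters' processing notes; the counting program, its strand setting and the annotation are not given in the sources used here. cDNA came from SMART-Seq v4 and libraries from Nextera XT, per the labels' protocols, which mention no molecular identifiers. All 55450 gene identifiers matched GENCODE M21. Counts were fitted with edgeR 4.0.16 under R 4.3.3 (filterByExpr with least count 10 and least total count 15, TMM, robust quasi-likelihood fit, genotype as the only term), with Benjamini-Hochberg adjustment over 16448 genes, two-sided. SE is the size of the log2 fold change divided by the square root of F. At the lowest total, 1 CPM is about 10.9 reads. The alternatives used DESeq2 1.42.0, limma 3.58.1 and sva 3.50.0, other scalings, no filter, an offset from gene length, covariates and fewer libraries. The scripts were tested on simulated data.

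The members and the gene lists were chosen with earlier results of these data known. A count set beside the share of all tested genes is therefore a description and not a test. All 9 members are named. From the other lists, called genes, the controls of the sort, paralogs of members and partners of Reln and Kit are named, with others added where a list's range is described. The 3 nearest genes are given for Lamp5 and for each called member.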

Additional observations from a re-analysis of the deposited data

Results flagged for a closer look

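Kit in control 4 stood apart from the other controls, at 157.6 CPM against 135.3 to 137.9 CPM, a gap to the nearest control of 0.887 of the range of the 4 controls. Without control 4 the log2 fold change of Kit was -0.36. It was the only such value among 45 genes examined in the controls, where chance gives about 1 in 20, and 3 mutants are too few to examine in this way.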

How the results depend on the processing

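No paired analysis was run. The groups share no replicate numbers, and the sample titles do not say whether any control and mutant were littermates or processed together. Of the 17 alternatives, 15 were planned, and leaving out control 4 with mutant 8 or control 1 with control 4 was added after seeing the data. Against 2 called markers (1 lower, 1 higher) and 1549 called genes, limma-voom gave 5 markers (3 lower, 2 higher) and 3147 genes. The length offset gave 5 (3 and 2) and 2753 genes, 1 surrogate variable 5 (3 and 2) and 3725 genes, and leaving out controls 1 and 4 gave 4 (2 and 2) and 2778 genes. The glutamatergic covariate gave 1 marker (1 lower, 0 higher) and 1230 genes. Leaving out 1 library gave 0 to 5 markers (0 to 3 lower, 0 to 2 higher) and 734 to 2347 genes. Of the further LAMP5 genes, 2 were higher under limma-voom, with the surrogate variable and without controls 1 and 4.

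Past the threshold came Lamp5 under limma-voom (-0.50); Reln under limma-voom (0.38), the offset (0.38), the surrogate variable (0.42) and without controls 1 and 4 (0.37); Id2 under the offset (-0.39), the surrogate variable (-0.39) and without controls 1 and 4 (-0.41); and Kit under limma-voom (-0.46), the offset (-0.43) and the surrogate variable (-0.42). Over all 17 alternatives the log2 fold change of Kit ran from -0.55 to -0.18. Sv2c lost its call with the glutamatergic covariate (0.43). Leaving out 1 library gave ranges of -0.69 to -0.37 for Lamp5, 0.34 to 0.55 for Reln, -0.59 to -0.28 for Id2, 0.37 to 0.50 for Sv2c and -1.51 to -1.13 for Cplx3, and ranges that crossed 0 for Ndnf (-0.014 to 0.26) and Egln3 (-0.0060 to 0.27).

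Among uncalled genes the sign turned for Lamp2 without control 4 and mutant 8 (0.037), Sv2b under limma-voom (0.11) and without controls 1 and 4 (0.28), and Id1 without controls 1 and 4 (0.023; 1 library left out, -0.44 to 0.024). Dab1 was at 0.11 under limma-voom, 0.018 with the offset, 0.0085 with the surrogate variable, 0.43 without control 4 and mutant 8 and 0.16 without controls 1 and 4 (-0.20 to 0.32). Kitl was at 0.060 under limma-voom, 0.012 without control 4 and mutant 8 and 0.15 without controls 1 and 4 (-0.21 to 0.00067). Slc32a1 was at 0.013 with the offset (-0.25 to 0.15), and Slc17a7 at 0.21 under limma-voom and 0.29 without controls 1 and 4 (-0.29 to 0.10). The causes were not tested. Cplx3 and Pax6 rest on 151 reads or fewer per library, so counting error limits their precision more than that of Reln.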

Other observations

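Genes of the neighbouring GABAergic classes of caudal origin were also read. Of 6 genes of the caudal lineage, Adarb2, Prox1, Nr2f2, Nr2f1, Sp8 and Htr3a, none was called (edgeR, DESeq2 and limma-voom; 2 had an unadjusted p under 0.05), and the median log2 fold change was 0.03. In a list of 10 genes of VIP and SNCG neurons, also chosen with earlier results known, 4 rose and 2 fell, beside 4.63% and 4.78% of all tested genes. Tac2, a tachykinin precursor, rose from 22.5 ± 5.93 CPM (SD, n = 4) to 46.5 ± 4.67 CPM (SD, n = 3), a log2 fold change of 1.05 (adjusted p = 0.00343). Npas1, a transcription factor of caudal interneurons, rose from 163 ± 19.8 to 256 ± 14.0 CPM (0.65, adjusted p = 0.00527). Both were called in each of the 17 alternatives. Cck (0.71, adjusted p = 0.0255) and Sncg (1.77, adjusted p = 0.0336, on 3 to 26 reads) also rose, and Crh (-0.74, adjusted p = 0.0298) and Chat (-1.64, adjusted p = 0.0428) fell. Each of these 4 calls was lost in 5 or 6 of the 17 alternatives.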
